A study of Saccharomyces cerevisiae with 4 samples.

Results

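The genes described here supply activated mannose and build the early part of the sugar chain that yeast attaches to asparagine residues of secreted and membrane proteins. They are 8 of the 5539 named genes on the arrays: SEC53, PMI40, PSA1 and DPM1 for mannose activation, and ALG7, ALG1, ALG2 and ALG11 for the early lipid-linked glycan. They are a list of named functions around SEC53, and SEC53 was chosen by its measured ratio on these same arrays, which was known to be among the most negative. The values that follow are therefore a description of the 8 genes, and where limma's calls of them are mentioned nothing is read from these. Each gene was represented by 1 probe, and the probes were named through the platform annotation. No sequence table was used here, so genes are identified by symbol and systematic name, without coordinates.

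In each of the 4 arrays, total RNA of Saccharomyces cerevisiae carrying the temperature-sensitive allele abf1-1 was hybridised in one channel and RNA of wild type cells in the other. ABF1 encodes an essential factor that binds many promoters, and the allele alters the protein without deleting the gene, so the mutant remains a conditional model. Both strains grew in YPAD, a rich medium, at 30 °C to an OD600 between 1.0 and 1.2. They then received an equal volume of medium at 42 °C and were kept for 45 min at 36 °C, so the warm shift was shared by mutant and wild type. The strain backgrounds and whether the 4 arrays came from separate cultures are not stated in the labels. The comparison addresses how transcript levels differ between the mutant and wild type after the shift.

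Every value is a log ratio of the channels within an array, taken as log2 and centred on the median of the array. Neither the labels nor the table states the log base or which strain is the numerator, so the deposited sign is kept throughout and no gene is called higher in the mutant. The arrays did not agree among themselves. Over all probes, which are not independent replicates, the Pearson r was 0.742 between arrays 1 and 3 and 0.864 between arrays 2 and 4, and it lay between -0.221 and 0.05 for the other pairs of arrays. Nothing in the labels accounts for such a split, and the part this split plays in the values of the 8 genes was not tested.

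In yeast, phosphomannose isomerase and phosphomannomutase turn fructose phosphate into the form of mannose phosphate that can be joined to GTP. The GDP-mannose made in this way is used directly on the cytosolic face of the endoplasmic reticulum, is transported into the Golgi for the mannan of the cell wall, and gives its mannose to dolichol phosphate for steps inside the endoplasmic reticulum. On the cytosolic face a sugar chain is started on dolichol with N-acetylglucosamine, extended with mannose, flipped to the lumen, completed there and moved to protein by the oligosaccharyltransferase. Loss of the human counterparts of several of these enzymes, among them that of Sec53, underlies congenital disorders of glycosylation.

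SEC53 (YFL045C), the gene for phosphomannomutase, had a negative ratio on every array, as PMI40 also did, and stood apart from the other 7 genes by its size. Its log2 ratio was -1.18 on array 1, -2.13 on array 2, -1.26 on array 3 and -1.71 on array 4. The mean was -1.57 ± 0.44 (SD, n = 4), a 2.97-fold difference between the strains if the base is 2 and all 4 arrays run in the same direction, which the labels do not state. Arrays 2 and 4 gave the more negative ratios, and the least negative array still lay below the lowest value of any other gene of the group, -0.87 for PMI40 on array 2. By mean ratio SEC53 was number 9 of 5539 named genes counted from the most negative, and the share of named genes with a more negative ratio ran from 0.0722% on array 2 to 2.11% on array 3.

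PMI40 (YER003C), the gene for phosphomannose isomerase, acts directly before SEC53 and had a small negative mean. Its log2 ratio was -0.37, -0.87, -0.01 and -0.41 on arrays 1 to 4, with a mean of -0.41 ± 0.35 (SD, n = 4). All 4 values were below 0, but the value on array 3 was close to 0 and lay near the middle of all named genes.

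PSA1 (YDL055C), the gene for the enzyme that joins mannose phosphate to GTP, acts directly after SEC53. Its log2 ratio was 0.31, -0.60, 0.38 and -0.34 on arrays 1 to 4, with a mean of -0.07 ± 0.48 (SD, n = 4). It was positive on arrays 1 and 3 and negative on arrays 2 and 4, so the mean near 0 came from values of opposite sign rather than from values near 0.

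DPM1 (YPR183W), the gene for dolichol phosphate mannose synthase, uses GDP-mannose to make the mannose donor of the lumen. Its log2 ratio was 0.44, -0.53, 0.47 and -0.10 on arrays 1 to 4, with a mean of 0.07 ± 0.48 (SD, n = 4). The signs alternated between the arrays as they did for PSA1.

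**Figure D1:**
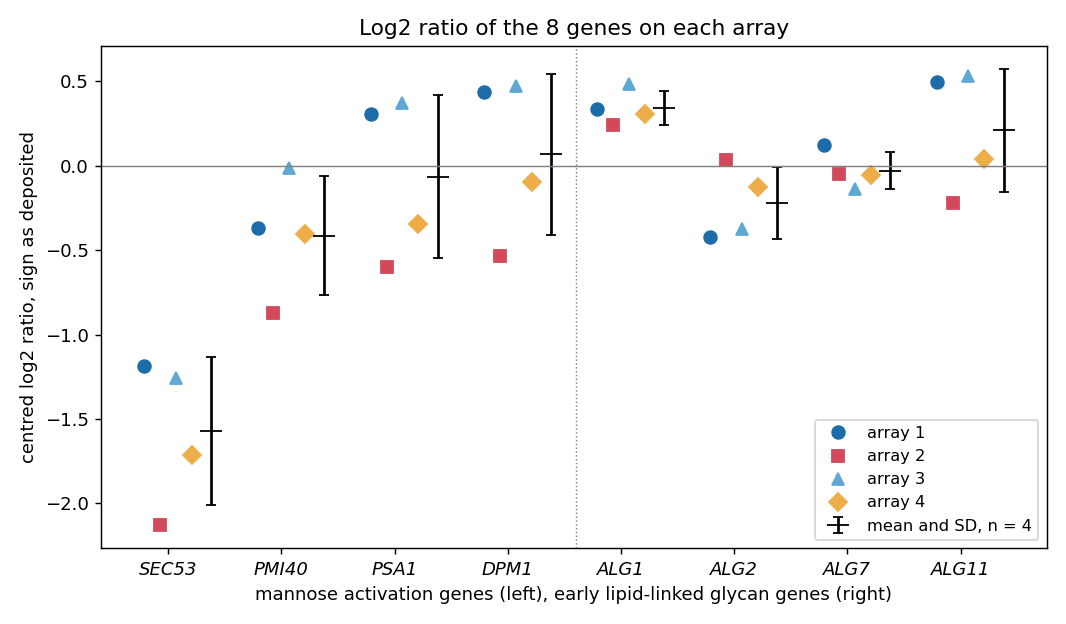
Centred log2 ratio of each of the 8 genes (vertical axis, sign as deposited) on arrays 1 to 4 (coloured symbols), with the mean and SD over the 4 arrays in black. SEC53 lies between -2.13 and -1.18, below every value of the other 7 genes, which lie between -0.87 and 0.53.

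The means of the early lipid-linked glycan genes lay between -0.22 and 0.34. ALG7 (YBR243C), for the enzyme that starts the chain by placing N-acetylglucosamine phosphate on dolichol phosphate and that is the target of tunicamycin, had log2 ratios of 0.12, -0.05, -0.14 and -0.05 on arrays 1 to 4. Its mean was -0.03 ± 0.11 (SD, n = 4), and all 4 arrays lay close to 0.

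ALG1 (YBR110W), for the mannosyltransferase that adds the first mannose, was the only gene of the 8 with a positive ratio on every array. The values were 0.34, 0.24, 0.48 and 0.31 on arrays 1 to 4, with a mean of 0.34 ± 0.10 (SD, n = 4), the smallest SD of the group. The mean corresponds to a 1.27-fold difference under the same conditions.

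ALG2 (YGL065C), for the mannosyltransferase that adds the following, branching mannoses, had log2 ratios of -0.42, 0.03, -0.37 and -0.12 on arrays 1 to 4. The mean was -0.22 ± 0.21 (SD, n = 4). Here arrays 1 and 3 were the more negative, the reverse of what was seen for SEC53, PSA1 and DPM1.

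ALG11 (YNL048W), for the mannosyltransferase that finishes the cytosolic part of the chain, had log2 ratios of 0.50, -0.22, 0.53 and 0.04 on arrays 1 to 4. The mean was 0.21 ± 0.36 (SD, n = 4). Arrays 1 and 3 were again above arrays 2 and 4, and 3 of the 4 values were positive.

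Ordered by mean ratio, the genes ran from SEC53 through PMI40, ALG2, PSA1, ALG7, DPM1 and ALG11 to ALG1. The step from SEC53 to PMI40 was the only one between neighbours in this order at which the values did not overlap, with a difference of -1.16 ± 0.23 (SD of the difference within arrays, n = 4). PMI40 differed from ALG2 by -0.19 ± 0.54, PSA1 from ALG2 by 0.16 ± 0.69 and PSA1 from ALG7 by -0.04 ± 0.48. DPM1 differed from ALG7 by 0.10 ± 0.47, DPM1 from ALG11 by -0.14 ± 0.12 and ALG1 from ALG11 by 0.13 ± 0.28. Apart from that between DPM1 and ALG11, these small differences lay within their own SD. The order among the middle genes rested on single arrays: with 1 array left out the mean ranged from -0.21 to 0.11 for PSA1, from -0.06 to 0.27 for DPM1 and from -0.08 to 0.01 for ALG7, so their signs turned. The lower values of PSA1 and DPM1 came without array 3 and the higher ones without array 2, and ALG7 turned positive without array 3. The mean of PMI40 ranged from -0.55 to -0.26 (without array 2) and that of ALG11 from 0.10 (without array 3) to 0.35 (without array 2), moves of over 1.5 times, while SEC53 stayed between -1.70 and -1.38. The median of the 8 mean ratios was -0.05, against 0.02 for all 6189 features (named genes and unnamed probes), and 5 of the 8 means, or 62.5%, were negative, against 47.5% of all features.

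Across all features, limma with Benjamini-Hochberg adjustment called 200 of 6189 at an adjusted p below 0.05, which is 3.23% of them, with 1.86% called with a negative and 1.37% with a positive ratio. SEC53, with its negative ratio, was the 1 gene of the 8 among them. Since the gene was known from this contrast when the list was drawn up, nothing is read from that count. The call of SEC53 was lost when any 1 of the 4 arrays was left out, and the whole table was as sensitive: without array 1, 3 or 4 limma called 0 features, with 898, 1066 and 752 at an unadjusted p below 0.05, and without array 2 there were 22.

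Although their means differed, several of the 8 genes moved from array to array in parallel. The mean of arrays 1 and 3 exceeded the mean of arrays 2 and 4 by 0.81 for PSA1, 0.77 for DPM1, 0.70 for SEC53, 0.60 for ALG11 and 0.45 for PMI40 on the log2 scale. For ALG1 and ALG7 this difference was 0.14 and 0.04, and for ALG2 it was -0.35. Over all named genes its median was 0.10, with quartiles of -0.33 and 0.42, so the 5 largest values of the group lay above the upper quartile. The genes that provide GDP-mannose and dolichol phosphate mannose, with ALG11, thus lay above that quartile, and ALG1, ALG2 and ALG7 did not. How many further pathway genes lay above that quartile was not counted. By sign, a different measure, 2 of the 8 genes (25%), PSA1 and DPM1, were positive on arrays 1 and 3 and negative on arrays 2 and 4. Of 64 further pathway genes described below, 21 (32.8%) had the same signs, so these signs were not particular to mannose supply. The opposite signs were seen in 4 (6.25%), and over all named genes the shares were 18.1% and 16.2%.

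**Figure D2:**
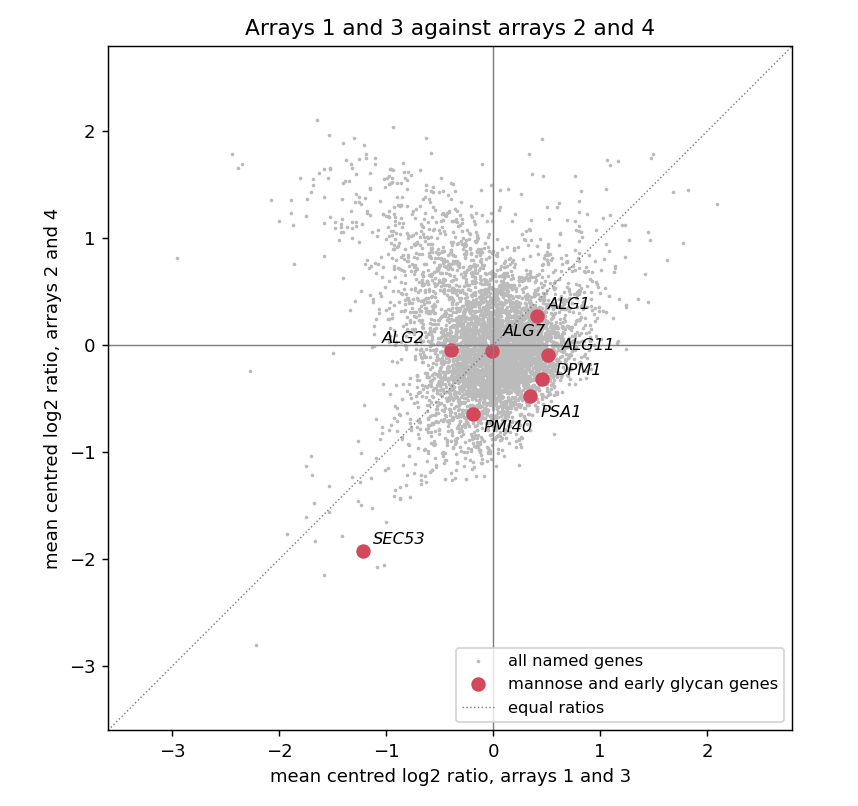
Mean centred log2 ratio of each named gene on arrays 1 and 3 (horizontal axis) against that on arrays 2 and 4 (vertical axis), with the 8 genes in red and all 5539 named genes in grey. SEC53 lies far into the lower left at -1.22 and -1.92, PSA1 and DPM1 lie right of and below 0, and ALG7 lies near the origin.

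Subtracting the ratio of another gene from that of SEC53 within each array removes what the genes share on that array. SEC53 minus DPM1 was -1.62, -1.60, -1.73 and -1.62 on arrays 1 to 4, a mean of -1.64 ± 0.06 (SD, n = 4). SEC53 minus ALG11 was -1.78 ± 0.10, SEC53 minus PSA1 was -1.51 ± 0.11 and SEC53 minus PMI40 was -1.16 ± 0.23. These spreads were smaller than the SD of 0.44 of SEC53 itself, so the distance between SEC53 and these genes was steadier across arrays than the ratio of SEC53.

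Against the other 3 genes the distance was less steady, at -1.91 ± 0.37 for ALG1, -1.54 ± 0.43 for ALG7 and -1.35 ± 0.65 for ALG2. For comparison, the median SD of such a difference from SEC53 over all 5538 other named genes was 0.41, itself below the SD of 0.44 of SEC53. DPM1 had the number 28 smallest SD among them, ALG11 number 133, PSA1 number 179 and PMI40 number 1106. These ranks are a description over 4 arrays that share the split described above. Among the 28 pairs that the 8 genes form, the 6 steadiest were all the pairs within SEC53, DPM1, PSA1 and ALG11, with SDs between 0.06 and 0.12.

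**Figure D3:**
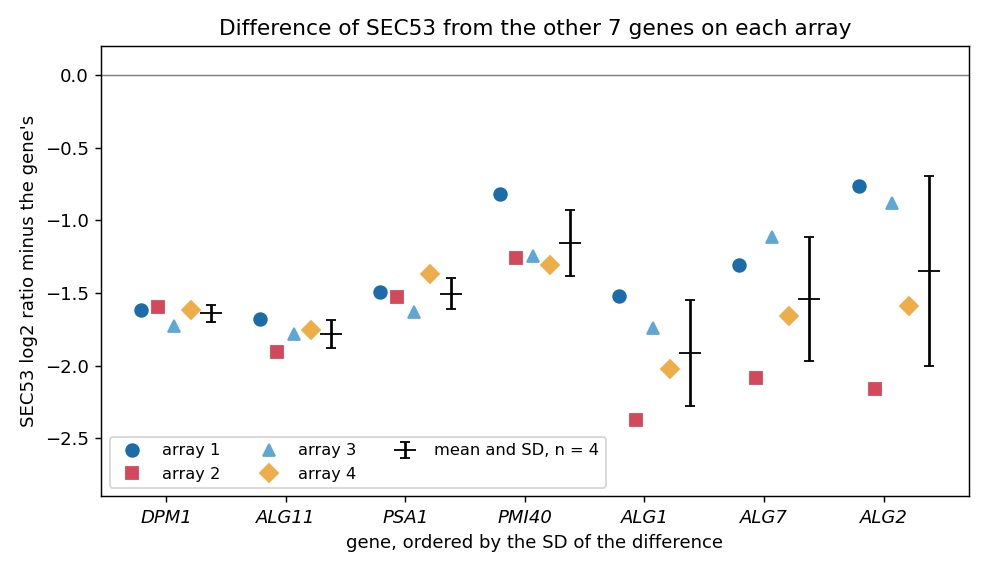
Log2 ratio of SEC53 minus that of each of the other 7 genes (vertical axis) on arrays 1 to 4 (coloured symbols), with mean and SD over 4 arrays in black, genes ordered by that SD. All 28 differences are below 0; those from DPM1, ALG11 and PSA1 lie within a narrow band, and those from ALG2 spread from -2.16 to -0.76.

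The genes whose log2 ratios were nearest to those of SEC53 over the 4 arrays, by Euclidean distance among 5538 named genes, included no other gene of the group. They were YEN1, for a Holliday junction resolvase, at a distance of 0.30, RPP1A, for a ribosomal stalk protein, at 0.42, and DSS4, for a protein that assists a secretory Rab GTPase, at 0.53. YIP3 followed at 0.53 and ARG7, for an enzyme of arginine synthesis, at 0.62. YEN1 had -1.06, -2.21, -1.11 and -1.93 on arrays 1 to 4, with the same order of strongly and less strongly negative arrays as SEC53. Of the other genes of the mannose group PMI40 was the nearest, as number 348 at a distance of 2.35, and ALG1 was the farthest, as number 4509 at 3.88. This distance counts the level of the ratios as well as their course over the arrays, so genes with means near 0 lie far from SEC53. DPM1 was number 2605 at 3.28, although its difference from SEC53 was the steadiest of the group.

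The chromosomal neighbours of the 8 genes were examined because Abf1 binds promoters, some of which serve genes on both sides. Of 16 adjacent genes in the RefSeq order of assembly R64, 15 were measured and 0 were called by limma, against 3.23% of all features, with 3 of the 15 at an unadjusted p below 0.05, against 20.8% of all features. OTU1, for a deubiquitinase, lies upstream of SEC53 on the same strand and had log2 ratios of -0.07, -0.31, 0.03 and 0.41 on arrays 1 to 4, a mean of 0.02 ± 0.30 (SD, n = 4; limma adjusted p 0.963). FMP32, for a mitochondrial protein, converges on the 3′ end of SEC53 and had -0.58, -0.04, -0.36 and -0.62, a mean of -0.40 ± 0.26 (limma adjusted p 0.182). Neither neighbour reached the least negative value of SEC53 on any array.

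PMI40 and its divergent neighbour FMP52, for a mitochondrial outer membrane protein, were both negative on all 4 arrays. FMP52 had -0.13, -1.04, -0.24 and -0.58 on arrays 1 to 4, with a mean of -0.49 ± 0.41 (SD, n = 4; limma adjusted p 0.203), and array 2 was the most negative for both genes. The divergent neighbour of ALG1, the calmodulin gene CMD1, had a mean of -0.00 ± 0.33 (-0.13 ± 0.27 over 3 arrays without array 2, where it carried the value that 46 probes shared), that of ALG7, the glutathione peroxidase gene GPX2, 0.01 ± 0.22, and that of ALG11, the vesicle coat gene SFB2, -0.07 ± 0.19. Upstream of DPM1 on the same strand SMX3, for a protein of the spliceosome core, had -0.24 ± 0.22, and downstream the glycogen debranching gene GDB1 had 0.33 ± 0.02 with values between 0.31 and 0.36, the narrowest spread among these neighbours (limma adjusted p 0.132). The remaining measured neighbours were NOP16 at 0.08 ± 0.28, MBP1 at 0.32 ± 0.32, YSA1 at 0.02 ± 0.22, SGF73 at 0.02 ± 0.11, MRH4 at 0.06 ± 0.24, YBR242W at -0.02 ± 0.23 and SLM2 at 0.04 ± 0.44.

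The steps before, around and after the 8 genes were followed through 64 further measured genes in 11 lists. Limma called 0 of the 64, against 3.23% of all features, with 6 (9.38%) at an unadjusted p below 0.05, against 20.8% of all features. When the model also took up the split between the arrays 9 (14.1%) were called, against 32.7% of all features. The median of their mean ratios was 0.01, and 33 were positive and 31 negative. Their medians on arrays 1 to 4 were 0.17, -0.27, 0.15 and -0.12. Of the 64, 21 (32.8%) were positive on arrays 1 and 3 and negative on arrays 2 and 4, the signs seen for PSA1 and DPM1, against 18.1% of all named genes, and 4 (6.25%) had the opposite signs, against 16.2%. Another 9 (14.1%) had a single sign on all 4 arrays, against 31.5% of named genes.

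**Figure D4:**
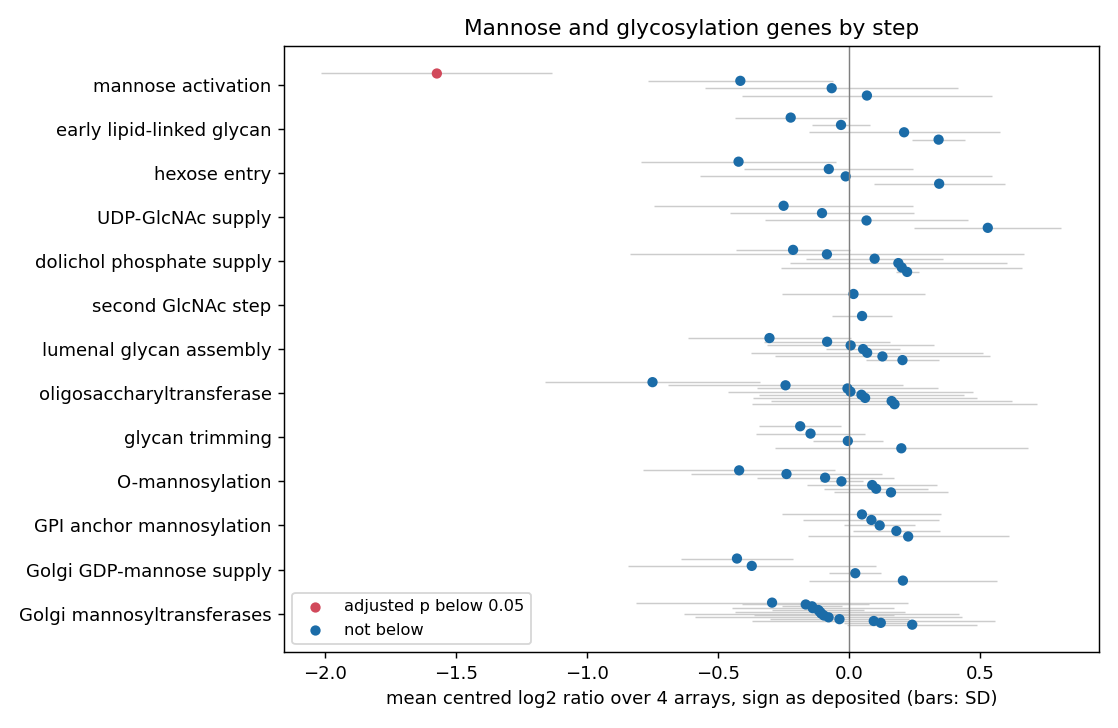
Mean centred log2 ratio over 4 arrays (horizontal axis, bars are SD) of every measured gene of the group (upper pair of rows) and of 11 lists of neighbouring steps, with the gene called by limma in red. SEC53 is the single red point at -1.57, and the lowest of the other genes is OST3 at -0.75.

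Upstream of PMI40, in hexose entry, 0 of 4 genes were called. The hexokinase gene HXK2 had -0.16, -0.93, -0.13 and -0.47 on arrays 1 to 4, with a mean of -0.42 ± 0.37 (SD, n = 4; limma adjusted p 0.229). The glucokinase gene GLK1 had a mean of 0.34 ± 0.25. In the supply of UDP-N-acetylglucosamine, the sugar donor used by Alg7, 0 of 4 genes were called, and GFA1, for the entry enzyme of that route, had 0.86, 0.20, 0.63 and 0.43, with a mean of 0.53 ± 0.28 (limma adjusted p 0.114). GFA1 had the highest mean of the 64 genes and was positive on all 4 arrays, whereas GNA1, for the acetyltransferase that follows it, had -0.25 ± 0.50.

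For dolichol phosphate, the lipid carrier used by Alg7 and Dpm1, 0 of 6 genes were called. DFG10, for the reductase that makes dolichol from polyprenol, had 0.18, 0.19, 0.24 and 0.27 on arrays 1 to 4, a narrow range with a mean of 0.22 ± 0.04 (SD, n = 4; limma adjusted p 0.262), and NUS1, for a subunit of the polyprenol synthase, had -0.21 ± 0.22. ALG13 and ALG14, which together encode the enzyme that adds N-acetylglucosamine to the product of Alg7, had 0.02 ± 0.27 and 0.05 ± 0.11. The partners of Alg7 on the cytosolic face thus had means near 0, as ALG7 itself did. For ALG13, unlike ALG7, that mean came from values of opposite sign, 0.35, -0.25, 0.13 and -0.15 on arrays 1 to 4.

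In lumenal glycan assembly, which uses the product of Dpm1, 0 of 7 genes were called. ALG3 had 0.20 ± 0.14 and ALG9, for a mannosyltransferase, had -0.30 ± 0.31. Of 8 measured subunits of the oligosaccharyltransferase 0 were called, and the median of their mean ratios was 0.03. OST3 had -0.54, -1.32, -0.39 and -0.74 on arrays 1 to 4, a mean of -0.75 ± 0.41 (SD, n = 4; limma adjusted p 0.0935), while OST6, whose product can take the place of Ost3 in the complex, had 0.16 ± 0.46 and the catalytic subunit gene STT3 -0.24 ± 0.45. OST3 was the most negative of the 64 genes and was negative on all 4 arrays. OST6 was chosen for mention after its values were seen.

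Among the users of dolichol phosphate mannose outside N-glycans, 0 of 7 genes of O-mannosylation and 0 of 5 genes of GPI anchor mannosylation were called. PMT1, for a protein O-mannosyltransferase, had -0.17, -0.79, -0.04 and -0.66 on arrays 1 to 4, with a mean of -0.42 ± 0.37 (SD, n = 4; limma adjusted p 0.227), and PMT4 had -0.24 ± 0.37. All 5 GPI genes had positive means, between 0.05 and 0.23, against 3249 of all 6189 features. PBN1 had 0.23 ± 0.38 and GPI14 0.18 ± 0.17. The list medians on arrays 1 to 4 were 0.33, -0.18, 0.30 and -0.002, and only 1 of the 5 had a single sign on all arrays. Of the others, 3 were positive on arrays 1 and 3 and negative on arrays 2 and 4.

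In the Golgi, 0 of 4 genes of GDP-mannose supply were called. GDA1, for the GDPase that removes a byproduct of mannosylation, had -0.23, -0.68, -0.27 and -0.52 on arrays 1 to 4, with a mean of -0.43 ± 0.21 (SD, n = 4; limma adjusted p 0.132). VRG4, for the transporter that carries the product of Psa1 into the Golgi, had -0.37 ± 0.47. Of 13 Golgi mannosyltransferases 0 were called, and none of the 13 had a single sign on all arrays, against 31.1% of all features. Means were negative for 10 (76.9%), against 47.5% of all features, and positive for 3. The list medians on arrays 1 to 4 were 0.22, -0.36, 0.15 and -0.24, so the sign differed between the 2 pairs of arrays. MNN11 had -0.29 ± 0.52 and MNN1 0.24 ± 0.25. Of 4 genes of glycan trimming in the endoplasmic reticulum 0 were called, with MNS1, for a mannosidase, at -0.19 ± 0.16 and ROT2, for a subunit of a glucosidase, at 0.20 ± 0.48.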

How the data were processed

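The values deposited by the authors were log ratios, 1 for each probe on each array, read as log2 since they take both signs and lie between -4.30 and 2.67. For dyes, scanner, background correction and normalization the labels give nothing. The table held 6226 probes, 0 missing values and 0 columns without a sample. Its column medians were -0.01, 0.03, -0.03 and 0.02 on arrays 1 to 4, so scale and direction are unstated and prior centring is possible. Without spot brightness, precision is limited by the number of arrays.

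The platform annotation gave 5576 probes 1 gene, 0 several and 650 none. Of the named probes 5572 matched the RefSeq table of assembly R64, which was used for current symbols and neighbours, and 4 kept the annotation's name. Arrays were centred on their medians and probes of a gene averaged (36 genes), leaving 6189 features. None of the 8 genes carried the exact value that 35 to 46 probes shared on each array.

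Each feature was tested against 0 with lmFit and eBayes of limma 3.58.1 (R 4.3.3), intercept only, 3 residual degrees of freedom, two-sided, Benjamini-Hochberg adjusted over all features. Since separate cultures are not recorded, the p-values reflect the spread of these arrays alone, which may be technical. The code of the fit was run on simulated ratios of known size, with noise independent between arrays. The simulation held no split between pairs of arrays, so it cannot tell how the calls behave under the split seen here. Tables and plots used Python 3.11.15, pandas 2.3.3 and matplotlib 3.10.9.

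The 8 genes, the 11 lists and the split of the arrays were chosen with earlier results of these data known. Besides the 8 genes, those named are, per list, up to 3 called genes with the mean ratio farthest from 0 in either direction. Where none was called, the 2 genes with the mean farthest from 0 are named. The 5 genes nearest to SEC53 and the adjacent genes are named as well. The alternatives tried were ratios left uncentred, equal spread, quantile normalization, single probes, shared values left out, robust eBayes, an adjusted p below 0.01, a term for the pair of arrays, medians and each array left out.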

Additional observations from a re-analysis of the deposited data

Results flagged for a closer look

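Among 50 genes checked, 2 had an array that lay far from the other 3; by chance about 1 in 20 groups would. The glucokinase gene GLK1 had -0.026 on array 2, against 0.44 to 0.52 on the others, and ALG14, a partner of ALG7 in the early chain, had 0.22 on array 3, against -0.02 to 0.01 on the others. None of the 8 genes of mannose supply and the early glycan was among them.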

How the results depend on the processing

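The mean ratio of each of the 8 genes moved by less than its SD under every alternative run. With 1 of 4 arrays left out, or with the median, this holds for any values. Robust eBayes, the stricter limit and the pair term leave the mean unchanged. Nothing about steadiness is therefore read from those settings. The means of PSA1, DPM1 and ALG7, which lay near 0, changed sign when single arrays were left out. The median of the 8 means lay between -0.12 and 0.04 when 1 array was left out. Over all features, 98 were called after quantile normalization, 2021 with a pair term for the split between arrays, 2 at an adjusted p below 0.01, and 0 to 22 with 1 array left out, against 200. Of the 8 genes, 3 were called with the pair term (SEC53, PMI40 and ALG1), where 32.7% of all features were called, 0 at an adjusted p below 0.01 and 0 with any 1 array left out, and SEC53 alone was called under the other alternatives. Of the 64 pathway genes, 9 were called with the pair term and 0 under the others. Of these 9, 7 were negative and 2 positive, against 990 negative and 1031 positive of the 2021 features called. Of the 15 measured neighbours, 4 were called with the pair term (FMP32, FMP52, GDB1 and MBP1) and 0 under the others. The pair term was drawn from the data, and disagreement between the pairs does not enter its error. The cause of these changes was not tested, beyond the stricter limit and the smaller number of arrays. Each array holds both strains, so the test of its ratio against 0 was already paired within the array. All 4 arrays form 1 group, and the labels give no further pairing.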
